A study of Rattus norvegicus with 28 samples.

Results

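The central myelin protein genes are 7 genes whose proteins belong to the myelin that oligodendrocytes make in the central nervous system: Mbp, Mog, Mag, Mobp, Mal, Cldn11 and Opalin. They were chosen by name, as the gene names that the array design gives to its probes, and the rule used no measured value, although earlier results of these data were known when the genes were chosen. All 7 were on the array, through 12 probes of 60 bases among 41012 probes, and each comparison below was tested over 35469 gene names.

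Oligodendrocytes wrap axons in a compacted, lipid-rich membrane, which insulates the axon and supports it, and the loss of these cells with the breakdown of myelin is a known consequence of spinal cord contusion. The members have different places in the sheath. Mbp (myelin basic protein) holds the cytoplasmic faces of the membrane together, and Mobp (myelin-associated oligodendrocyte basic protein) lies in the same compacted layers. Mog (myelin oligodendrocyte glycoprotein) sits on the outermost surface of the sheath, and Mag (myelin-associated glycoprotein) on the inner surface that faces the axon. Mal is a membrane proteolipid that takes part in the sorting of myelin components, Cldn11 forms the tight junctions between the turns of the sheath, and Opalin is a small transmembrane protein of mature oligodendrocytes.

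RNA came from the thoracic spinal cord around the injury site, without the dura mater, of adult female Sprague Dawley rats, with 28 samples in 7 groups of 4. T0 is the control cord, which the labels call sham and the study's text calls uninjured. T1, T2, T4 and T8 were taken 1, 2, 4 and 8 weeks after a severe contusion (spinal cord injury, SCI). T1_NPC received neural progenitor cells (NPCs) right after the contusion and was taken at 1 week, and T2_NPC received them 1 week after the contusion and was taken at 2 weeks. The NPCs were grown from adult rat cords that had themselves been injured and were injected on both sides of the lesion, and the methods give tacrolimus, an immunosuppressant, to the operated animals and injections of cell-free medium to the injured controls. The labels give T2_NPC a slightly shorter stretch of cord than the other groups. RNA from graft and host cells was measured together. In such bulk tissue, fewer cells of a type and less RNA per cell cannot be told apart.

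The probes decide what each value below stands for, so those on which the results turn are shown, 5′ to 3′ and in lower case, with rn4 coordinates from the array design. Mog, Mag, Cldn11 and Opalin each have a probe that is printed whole, because these genes span the range of changes after injury. Of the 3 Mobp probes, the second Opalin probe and the Mal probe, the first 30 bases are given, since single Mobp and Opalin probes differed in the transplanted groups.
Mog, chr20:1610278-1610337, plus strand: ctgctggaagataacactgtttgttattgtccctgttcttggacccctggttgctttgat
Mag, chr1:85954956-85955015, minus strand: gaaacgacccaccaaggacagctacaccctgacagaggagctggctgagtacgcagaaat
Cldn11, chr2:116627458-116627517, minus strand: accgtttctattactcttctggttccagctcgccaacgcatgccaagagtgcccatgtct
Opalin, from base 240 of its transcript, in blocks within chr1:246237040-246239251, minus strand: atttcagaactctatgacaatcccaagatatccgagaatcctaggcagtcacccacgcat
Opalin, from base 2586 of its transcript, chr1:246234694-246234753, minus strand: agaatcttcatttcaagttgttttcactaa
Mobp, from base 74 of its transcript, in blocks within chr8:125123469-125135645, plus strand: agtcctggttgccagatgggagcttgaaaa
Mobp, from base 3049 of its transcript, chr8:125143743-125143802, plus strand: tttccacacctagcaggaccacacgatttc
Mobp, from base 619 of a separate database transcript, chr8:125147253-125147312, plus strand: caccaaaaatgtgtgttttgaattaacttt
Mal, chr3:115167515-115167574, minus strand: tctaaaatgctctagtctgtgtttgggcat

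The RefSeq promoter table (build GRCr8) held 7 promoters for 6 of the members and none was listed for Mog. Sox10, a textbook regulator of myelin genes, belongs to a family that binds a short core written ACAAAG, or CTTTGT on the other strand. That core, looked at after the Mobp sequence had been seen, was counted on both strands of the 300 bases around each start site. It occurred at least 1 time in 4 of the 7 member promoters and in 18.8% of all 33469 promoters. The Mobp promoter held 8 copies, a number reached by 3 promoters in the table (0.009%), and it is shown for that reason, with the copies in capitals, over the 250 bases before the start site (chr8:128746982-128747231, plus strand). These letters are a match to a motif and were not tested for binding.
Mobp promoter: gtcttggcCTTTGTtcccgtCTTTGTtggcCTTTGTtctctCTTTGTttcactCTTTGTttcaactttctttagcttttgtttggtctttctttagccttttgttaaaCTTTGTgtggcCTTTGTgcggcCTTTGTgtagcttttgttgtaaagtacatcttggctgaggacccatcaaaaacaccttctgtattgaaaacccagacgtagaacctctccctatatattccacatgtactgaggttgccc

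Before the results, a conflict in the deposit has to be stated. The normalized value table names a sample for each column, and so does each scanner file, and for 16 of the 28 arrays these names disagree, since the scanner file with the same rank order as a column is recorded under another sample. The values below use the names of the value table. Under the names of the scanner files, limma called 0 members in every comparison, where 0 to 831 of all gene names were called. The 12 arrays on which both agree include 2 of T0, 1 of T1, 2 of T2, 1 of T4, 2 of T8, all 4 of T2_NPC and none of T1_NPC, and results from these alone are given for members whose call against T0 or between T2_NPC and T2 they change, with a lone array assumed to vary like the other groups. The T0 to T8 arrays were scanned in 2 sessions that each hold every time point, and the transplanted groups in another session, each on a slide of its own. Every member probe was well above background on all 28 arrays, where 74.5% to 82.7% of all spots were, and no spot was saturated.

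Several members differed between scan sessions. Over T0 to T8, Mbp was 0.72 ± 0.09 (SE) higher on the log2 scale in session 2 than in session 1 (limma with group in the fit, adjusted p = 1.38e-05), Cldn11 was 0.37 ± 0.13 higher (adjusted p = 0.0302) and Opalin fell by 0.62 ± 0.13 (adjusted p = 0.00159). These 3 of 7 members compare with 38.4% of all gene names called between the sessions. Among single probes, 8 of 12 differed between sessions, beside 39.4% of all probes, and the Mobp probes went opposite ways, with the probe from base 74 at -0.71 ± 0.12 and the probe from base 619 of the separate transcript at 0.56 ± 0.08. The mean over Mobp probes, at -0.12 ± 0.07 (adjusted p = 0.211), hides this. The change of each member after injury is therefore also given with session in the fit where that changed a call. The tests of pairs below did not take session into account.

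**Figure D1:**
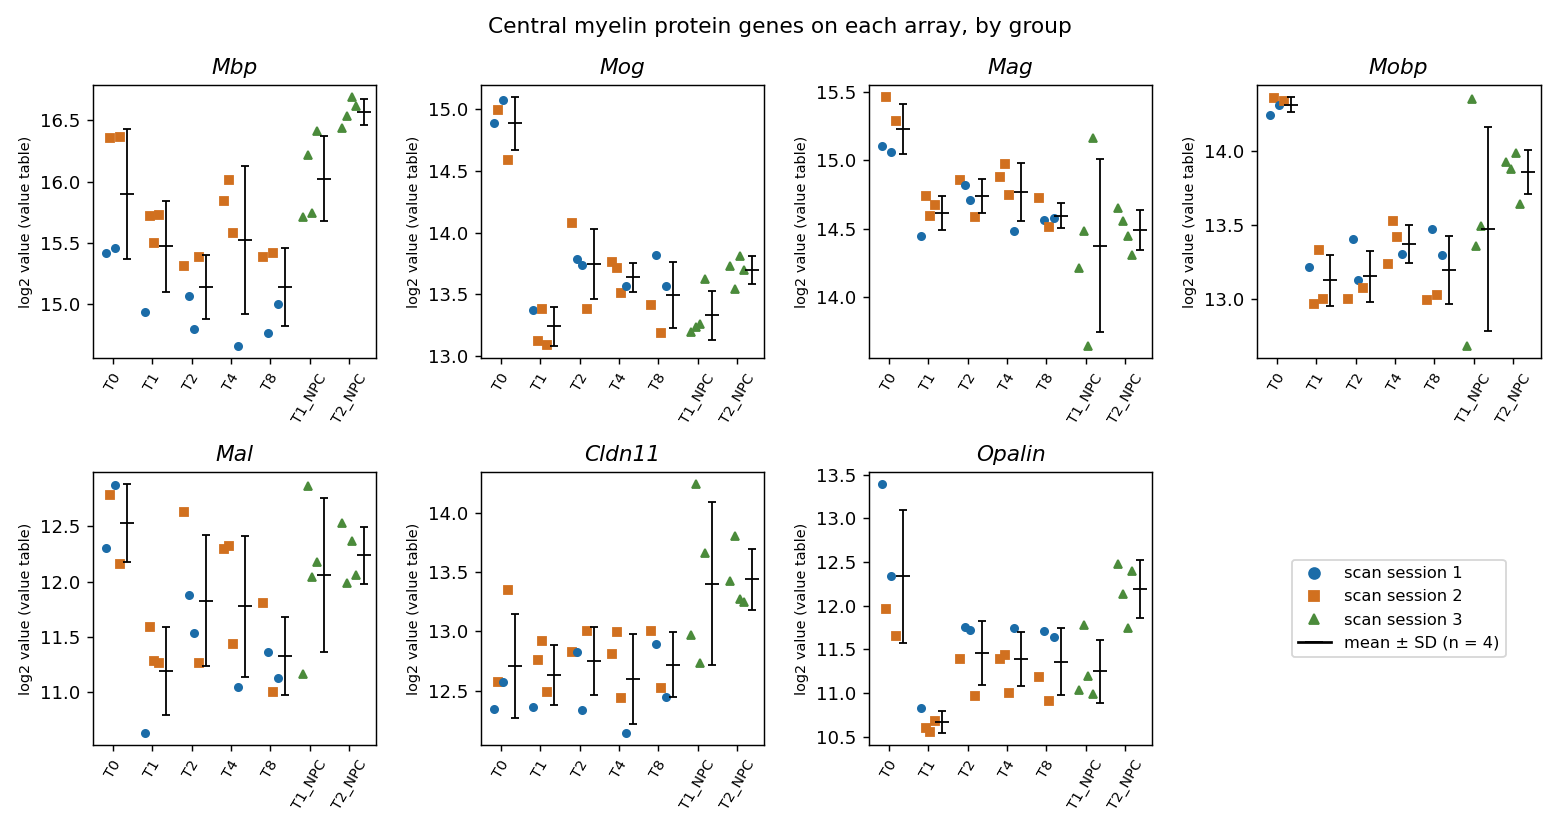
Log2 values of the 7 genes (y axes, value table) on each array, by group (x axes), with symbols for the scan session and bars for the group mean and SD (n = 4). Mog and Mobp of all T1, T2, T4 and T8 arrays lie below all T0 arrays, Cldn11 overlaps T0 throughout the time course, and Mbp splits by session within T0.

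After SCI, 5, 5, 3 and 6 of the 7 members were lower at T1, T2, T4 and T8, respectively, than at T0 (limma, adjusted p under 0.05), and none was higher. Over all gene names, 25.1%, 22.2%, 21% and 21.5% were called lower in the same comparisons. In the same order, the median log2 changes of the members were -1.18, -0.76, -0.75 and -0.98, beside medians of -0.10, -0.06, -0.06 and -0.04 over all gene names. With scan session as a term in the fit, Mbp was also called at T1 and T4, and Mag and Mal at T4, so that 6 members were lower at T4. Within a session, all 48 differences from T0 for the 6 members other than Cldn11 were below 0. For Cldn11, the session 1 differences were 0.12 at T2 and 0.21 at T8, and the rest were below 0. These differences are not independent, since they reuse 2 T0 arrays in each session. In session 1, those at T1 and T4 rest on 1 injured array. The matching share over all gene names is not given.

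Mog, the surface glycoprotein, and Opalin had the largest falls at T1. Mog stood at 14.88, 14.99, 15.07 and 14.59 (log2 values) on the T0 arrays and at 13.37, 13.12, 13.38 and 13.09 on the T1 arrays. Every injured array of the time course lay below every T0 array, the highest being 14.08 at T2. Over all gene names, 23.6%, 20.5%, 21.1% and 21.3% were lower than T0 on every array at T1, T2, T4 and T8, respectively. The same shares stand beside each separation from T0 given below for the time course. Mog fell by 1.64 on the log2 scale at T1 (SE 0.15, adjusted p = 4.44e-09), to 0.32 of its T0 level, and was still 1.39 lower at T8 (log2 change -1.39, SE 0.15, adjusted p = 8.83e-08). At T2 and T4 the log2 changes of Mog were -1.14 and -1.25. Both Mog probes were called lower at each time.

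Mobp, the second basic protein of compact myelin, had the tightest T0 group. Its T0 arrays read 14.24, 14.35, 14.31 and 14.33, and its 16 injured arrays of the time course ran from 12.97 to 13.53, with no overlap. From T1 to T8, the log2 changes in time order were -1.18 (SE 0.21), -1.15, -0.93 and -1.11, with adjusted p of 6e-05, 8.41e-05, 0.000888 and 0.000136. The tight T0 values are an average of probes that session moved in opposite directions. The probes from bases 74 and 3049 of the Mobp transcript fell by 1.42 and 1.48 at T1, and the probe from the separate transcript by 0.64 (adjusted p = 0.042 over single probes). That last probe at T4 had a log2 change of -0.42 and was not called (adjusted p = 0.203).

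Opalin, expressed late in oligodendrocyte maturation, was lowest at T1 and had the widest T0 group. It read 13.39, 11.96, 12.34 and 11.65 on the T0 arrays, of which the lower values, 11.96 and 11.65, were from scan session 2. The T1 arrays read 10.83, 10.60, 10.55 and 10.68, all below T0, while T2, T4 and T8 arrays reached 11.76, 11.75 and 11.71 and overlapped T0. Opalin fell from T0 to T1 by 1.67 on the log2 scale (SE 0.28, adjusted p = 3.99e-05). Its later log2 changes from T0 were -0.88, -0.94 and -0.98 (adjusted p = 0.016, 0.0107 and 0.00777). These 3 calls were lost with only the compared groups in the fit (adjusted p = 0.11, 0.079 and 0.0777), and the probe from base 240 was not called at these times (adjusted p = 0.0664, 0.107 and 0.0978). With only the undisputed arrays, Opalin was not called at T4 (log2 change -1.12, adjusted p = 0.0938).

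Mal, the sorting proteolipid, fell by 1.34 ± 0.34 (SE) at T1 (adjusted p = 0.00225) and by 1.21 ± 0.34 at T8 (adjusted p = 0.00582) on the log2 scale. Its T0 arrays ran from 12.16 to 12.88, above all T1 arrays (10.63 to 11.59) and all T8 arrays (11.00 to 11.81). At T2 and T4 its log2 changes of -0.70 and -0.75 were not called (adjusted p = 0.105 and 0.0834), and single arrays there reached 12.63 and 12.32. The SDs of Mal over 4 arrays were 0.59 and 0.64 at these times. With only the undisputed arrays, the log2 changes of Mal were -0.89 at T2 and -1.54 at T4 (adjusted p = 0.0317 and 0.011).

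Mag, on the axonal face of the sheath, changed less than Mog. Its T0 arrays read 15.10, 15.46, 15.06 and 15.29, and the 16 injured arrays ran from 14.45 to 14.97 without overlap. In time order, its log2 changes were -0.62 (SE 0.20), -0.49, -0.46 and -0.63, with adjusted p of 0.0123, 0.0492, 0.0669 and 0.0114. The T4 value was called with session in the fit (log2 change -0.50, adjusted p = 0.00045) and with only the undisputed arrays (-0.60, adjusted p = 0.025), and the T2 value was not called with the latter (-0.32, adjusted p = 0.0843). Leaving out replicate 1, 2 or 4 of T0, or any replicate of T2, also lost the T2 call (limma adjusted p from 0.0568 to 0.136).

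Mbp, of compact myelin, showed a fall that depended on how sessions were treated. Its T0 arrays read 15.42 and 15.45 in session 1 and 16.36 and 16.36 in session 2. In session 1 the 6 injured arrays ran from 14.66 to 15.07, and in session 2 the 10 injured arrays ran from 15.31 to 16.02, below T0 in each case. Without session in the fit, Mbp was called lower at T2 and T8 (log2 changes of -0.76 at both, SE 0.27, adjusted p = 0.0282 and 0.0287), while the T1 and T4 values of -0.43 and -0.38 were not called (adjusted p = 0.218 and 0.303). With session in the fit, the log2 changes in time order were -0.61, -0.76, -0.56 and -0.76, with adjusted p of 0.00133, 0.000177, 0.00312 and 0.000185. The calls at T2 and T8 were lost with only the compared groups in the fit (adjusted p = 0.0623 and 0.0673), and the brighter of the 2 Mbp probes was not called at either time (-0.65 and -0.68, adjusted p = 0.12 and 0.104). With only the undisputed arrays, Mbp was called at T4 (-0.78, adjusted p = 0.0146).

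Cldn11, of the tight junctions and measured by only 1 probe, was the member without a called change in the time course. Its T0 arrays read 12.35, 12.57, 12.57 and 13.35, and its injured arrays of the time course ran from 12.14 to 13.00 and overlapped them. The log2 changes were -0.08, 0.04, -0.12 and 0.01 at T1, T2, T4 and T8 (adjusted p = 0.851, 0.944, 0.791 and 0.989). The 95% confidence intervals reached from -0.64 to 0.48 at T1 and from -0.55 to 0.57 at T8. Falls of the size seen in Mog lay outside them, while the T1 interval included the Mag change of -0.62.

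**Figure D2:**
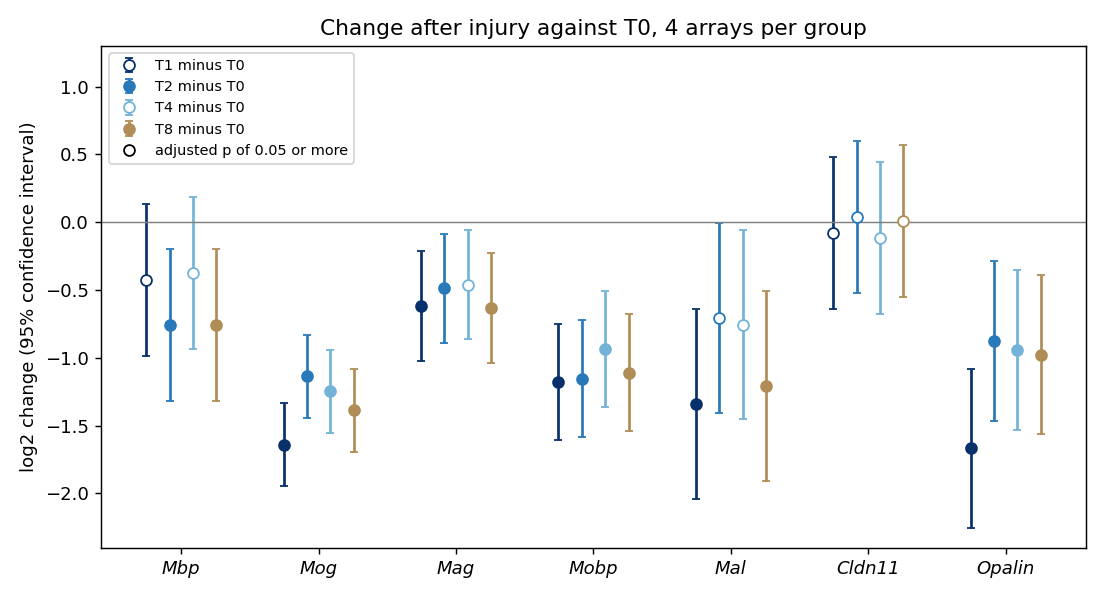
Log2 change from T0 (y axis) of each gene (x axis) at T1, T2, T4 and T8, with 95% confidence intervals from limma and open symbols for adjusted p of 0.05 or more (4 arrays per group). Mog, Mobp and Opalin have filled symbols at all 4 time points, with Mog at -1.64 and Opalin at -1.67 at T1, and Cldn11 lies near 0 throughout.

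The members did not all change by the same amount. For each of the 21 pairs, the difference between 2 members within an array was compared between the 16 injured arrays of the time course and the 4 T0 arrays by an exact two-sided permutation test over all 4845 assignments, and 7 pairs differed after Benjamini-Hochberg adjustment over the pairs. Of these, 5 involved Cldn11, whose change was above that of Mog by 1.31, of Opalin by 1.08, of Mobp by 1.06, of Mal by 0.96 and of Mag by 0.51 on the log2 scale (adjusted exact permutation p = 0.00434, 0.0384, 0.00433, 0.0165 and 0.0188). The others set Mag above Mog by 0.80 and above Mobp by 0.54 (adjusted exact permutation p = 0.00433 for both). All 7 differences kept their sign within each scan session, in the same arrays that were tested. So did the pairs not called, except Mobp with Mal, Mobp with Opalin and Mal with Opalin. No pair with Mbp was called, and session shifts in Mbp widen its spread in this test. Within sessions 1 and 2, Mbp differed from Mog by 0.77 and 0.55 and from Cldn11 by -0.61 and -0.59.

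Among the remaining pairs, the changes of Mobp and Opalin were closest over both sessions together, 0.02 apart (adjusted exact permutation p = 0.933). Within sessions 1 and 2, however, Mobp differed from Opalin by 0.33 and -0.39, in opposite directions. When each of the 20 arrays was left out in turn, 4 of the 7 pairs stayed below 0.05 every time, Mog with Mag, Mog with Cldn11, Mag with Mobp and Mobp with Cldn11. The count fell to 4 without T0 replicate 2 or T0 replicate 3 and rose to 11 without T0 replicate 4.

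**Figure D3:**
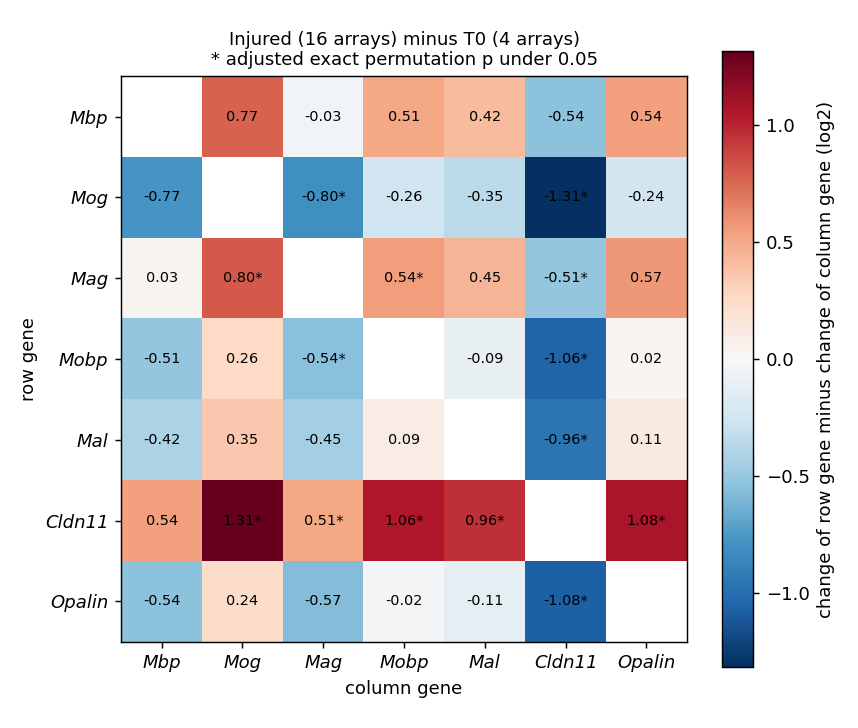
Difference between the log2 change of the row gene and that of the column gene, injured minus T0, with an asterisk where the adjusted exact permutation p is under 0.05. The Cldn11 row is positive against every other member and reaches 1.31 against Mog, and the Mbp row carries no asterisk.

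Between time points after injury, little was called. For T2 against T1, T4 against T2, T8 against T4 and T8 against T1, limma called 0 members in each, beside 1.48%, 0.0761%, 0.0902% and 9.87% of all gene names. At an unadjusted p under 0.05, the counts were 2, 0, 0 and 1 members, beside 13.9%, 9.02%, 4.84% and 20.9% of all gene names. Opalin was higher at T2 than T1 on every array (10.97 to 11.76 against 10.55 to 10.83), with a log2 change of 0.79 (adjusted p = 0.184). Mog was too, but narrowly (13.381 to 14.08 against 13.09 to 13.379), with a log2 change of 0.51 (adjusted p = 0.089). The brighter Mog probe overlapped. Over all gene names, 4.23% were higher at T2 than T1 on every array. Session 2, in which Opalin was lower, held 3 of the T1 arrays and 2 of the T2 arrays. The brighter Opalin probe, from base 2586, was called higher at T2 than T1 (1.00 ± 0.22 SE, adjusted p = 0.0204 over single probes, of which 0.768% were called higher) and at T8 than T1 (0.72, adjusted p = 0.0381, with 5.53% called higher).

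In the transplanted cords, Mbp and Mobp were higher at 2 weeks than in the time-matched injured cords, and no member was called at 1 week. For T2_NPC against T2, limma called 2 of 7 members higher and none lower, beside 4.62% of all gene names called higher. For T1_NPC against T1 it called 0 members, beside 11.9% of all gene names in either direction, and 2 members, Mal and Cldn11, at an unadjusted p under 0.05, a share near the 26.8% of all gene names there. All transplanted arrays were on 2 slides in a scan session of their own, which hold no other group, so the slide and session cannot be told apart from transplantation in each of these values.

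Mbp read 16.44, 16.53, 16.69 and 16.61 on the T2_NPC arrays and 15.31, 15.07, 14.80 and 15.38 on the T2 arrays, which do not overlap. The log2 change was 1.43 ± 0.27 (SE, adjusted p = 0.00182), a 2.69-fold higher level, and 1.64 with only the undisputed arrays. T2_NPC was also above all T0 arrays for Mbp, by 0.67 ± 0.27 (adjusted p = 0.046), a call that was lost with slide as a random block, 75th percentile scaling, the replicate number as a block and only the compared groups (adjusted p = 0.0577, 0.169, 0.0556 and 0.0571). For T1_NPC against T1 the Mbp change was 0.55 ± 0.27 (adjusted p = 0.195), with values of 15.71, 16.22, 15.74 and 16.41 against 14.94, 15.72, 15.49 and 15.73. Both Mbp probes rose from T2 to T2_NPC, by 1.51 and 1.35. Over all gene names, 9.97% were higher on every T2_NPC array than on every T2 array, and 20.9% than on every T0 array.

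Mobp read 13.92, 13.87, 13.99 and 13.64 on the T2_NPC arrays, above all T2 arrays (13.01 to 13.40) and below all T0 arrays (14.24 to 14.35). The log2 change from T2 was 0.70 ± 0.21 (SE, adjusted p = 0.0349), and this call was lost with slide as a random block (adjusted p = 0.107) and with 75th percentile scaling (adjusted p = 0.121). Its probes differed in size. The probe from the separate transcript rose by 1.44 ± 0.25 (adjusted p = 0.000738), while those from bases 3049 and 74 had log2 changes of 0.58 and 0.09 (adjusted p = 0.207 and 0.915). Within an array, the first of these exceeded the last by 2.48 to 2.73 in T2_NPC and 2.01 to 3.01 in T1_NPC, against 0.15 to 1.61 in T0, 1.04 to 2.02 in T1, 0.56 to 2.04 in T2, 0.27 to 2.22 in T4 and 0.46 to 2.13 in T8, so that T1_NPC just overlapped the injured groups, a comparison chosen after its values were seen. These are also the 2 probes that session 2 against session 1 moved by 0.56 and -0.71 over T0 to T8. The transplanted arrays form a session of their own. Over all gene names, 26.2% were lower on every T2_NPC array than on every T0 array.

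**Figure D4:**
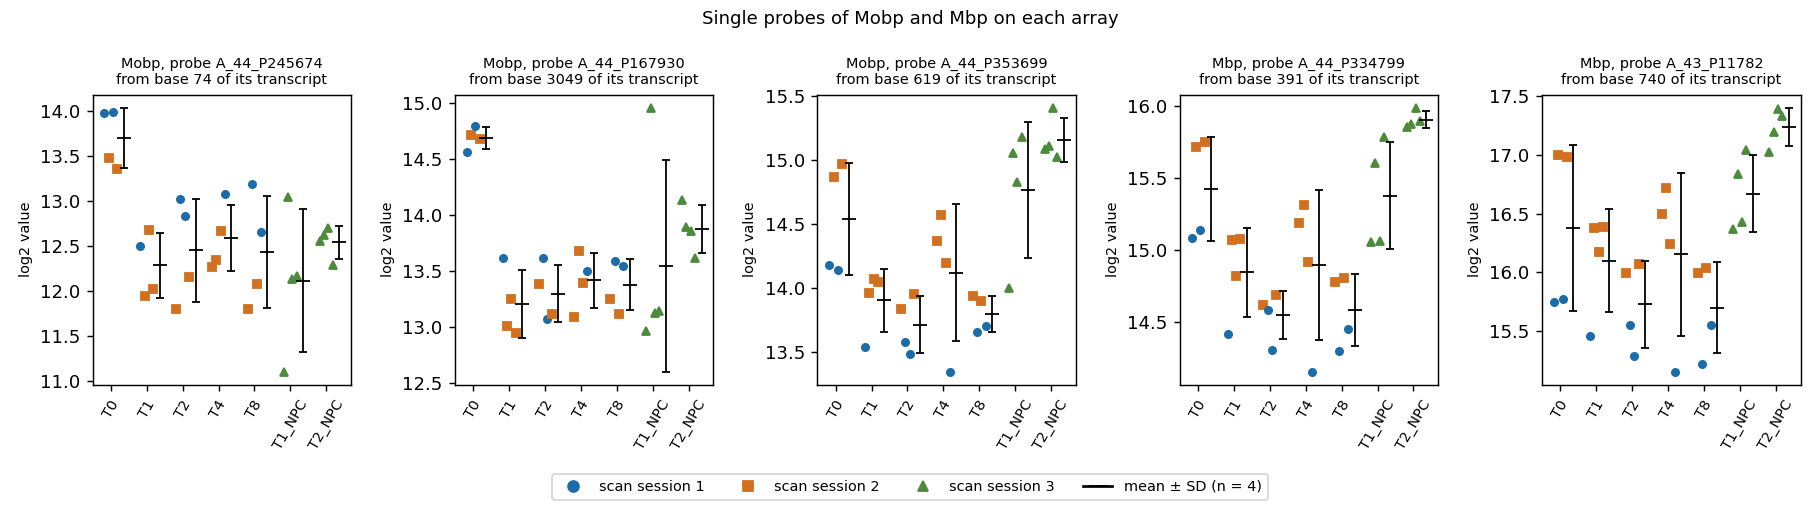
Log2 values (y axes) of the 3 Mobp probes and 2 Mbp probes on each array, by group (x axes), with symbols for scan session and bars for mean and SD (n = 4). The Mobp probe from base 619 lies at 15.02 to 15.40 in T2_NPC, above all T0 arrays, where the probe from base 74 stays below T0, and its session 2 symbols lie above those of session 1 in T0, the reverse of the probe from base 74.

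Over single probes, 4 of 12 were called higher in T2_NPC than T2 and 1 of 12 in T1_NPC than T1, beside 5.31% and 5.83% of all probes. The probes called for T2_NPC were both of Mbp, the separate Mobp probe and the dimmer Opalin probe from base 240 (1.28, adjusted p = 0.0459), and for T1_NPC the separate Mobp probe (0.86, adjusted p = 0.0262). Against T0, single probes of the members were called lower for 10, 8, 5 and 9 of 12 in time order, beside 25.4%, 22.5%, 21.2% and 22.0% of all probes.

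Mog and Mag were not called in the transplanted cords. Their log2 changes from T2 to T2_NPC were -0.05 (95% confidence interval -0.36 to 0.26) and -0.25 (-0.65 to 0.15), with adjusted p of 0.889 and 0.473. Cldn11 read 13.25 to 13.80 in T2_NPC against 12.34 to 13.00 in T2, all higher, with a log2 change of 0.69 ± 0.27 that was not called (adjusted p = 0.112) and was called with only the undisputed arrays (0.86, adjusted p = 0.0311). Opalin and Mal had log2 changes of 0.73 and 0.41 there (adjusted p = 0.109 and 0.5).

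**Figure D5:**
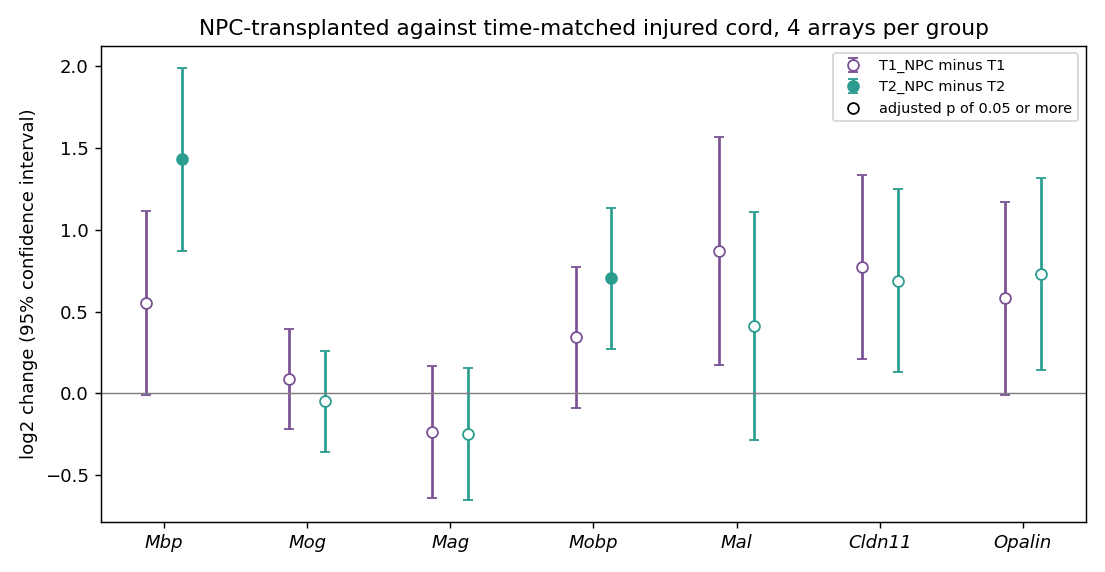
Log2 change (y axis) of each gene (x axis) in the transplanted cords against injured cords of the same time, with 95% confidence intervals from limma and open symbols for adjusted p of 0.05 or more (4 arrays per group). Mbp (1.43) and Mobp (0.70) have filled symbols for T2_NPC minus T2, and Mog lies near 0 in both comparisons.

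The T1_NPC arrays differed from each other in Mag, Mobp, Mal and Cldn11, whose SDs there were 0.63 to 0.70. T1_NPC replicate 2 was highest for Mobp (14.35), Mal (12.86) and Cldn11 (14.24), and its scanner file is recorded under T0. The summed level of a gene list is the log2 of the summed unlogged values of its genes, in which the brightest genes weigh most. Replicate 2 also had the lowest summed level of the T cell list (9.79 against 12.34 to 12.63) and of the fibroblast list (15.01 against 16.71 to 17.69). Both levels lay above those of T0 (8.71 to 9.19 and 12.43 to 13.00). Its Mog value was 13.24, below all T0 arrays (14.59 to 15.07). Every T1_NPC array had a summed microglia and macrophage level of 18.60 or more, against 15.48 to 16.09 in T0. Their neuron levels were 17.37 or less, against 18.27 to 18.72 in T0. Without T1_NPC replicate 2, the log2 changes from T1 were 0.05 for Mobp, 0.60 for Mal and 0.49 for Cldn11, from 0.34, 0.87 and 0.77 with it, and 0 members were called. Without T1_NPC replicate 1, which was lowest for Mobp and Mal, these 3 members were called higher (0.61, 1.17 and 0.92, adjusted p = 0.0261, 0.0235 and 0.0381), without T1_NPC replicate 3 Cldn11 was called higher (0.99), and without T1_NPC replicate 4 Mag was called lower (-0.50).

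The difference between the 2 transplantation effects was itself tested. No member was called, beside 0.299% of all gene names, and Mbp had an unadjusted p under 0.05, as did 11.2% of all gene names, with an effect 0.88 ± 0.38 (SE) larger at 2 weeks than at 1 week (adjusted p = 0.386). Against T0, T1_NPC had 4 members lower (Mog, Mag, Mobp and Opalin) and Cldn11 higher, beside 29.9% and 22.8% of all gene names, and T2_NPC had Mog and Mag lower and Mbp and Cldn11 higher, beside 26.5% and 21.2%. The Cldn11 calls were lost with slide as a random block, 75th percentile scaling and normexp, with adjusted p of 0.0772, 0.113 and 0.056 for T1_NPC and 0.0687, 0.124 and 0.0648 for T2_NPC, and with only the compared groups for T1_NPC (adjusted p = 0.164). Mag and Mobp in T1_NPC were not called with only the compared groups (adjusted p = 0.0505 and 0.0613), and by its brightest probe Mobp turned to 0.23 (adjusted p = 0.476). In T2_NPC, Mobp had a log2 change from T0 of -0.45 that was not called (adjusted p = 0.078) and was called with only the undisputed arrays (-0.42, adjusted p = 0.0275) and with 75th percentile scaling, normexp and only the compared groups (adjusted p = 0.0103, 0.0461 and 0.0071), while its brightest probe turned to 0.62 (adjusted p = 0.0458). Mog was 1.55 and 1.19 lower than T0 in T1_NPC and T2_NPC (log2 changes of -1.55 and -1.19), with all 8 arrays below T0. Over all gene names, 24.4% and 26.2% were lower than T0 on every array of these groups.

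Other genes of oligodendrocytes, from lists named with the members, also fell after injury in most cases. Over all gene names, 21% to 25.1% were called lower and 17.5% to 19.1% higher at the same times. Of 15 other structural genes, 10 were lower at each time point, 9 of them at all 4, with 0 higher at T1 and 1 at T2, T4 and T8, and their median log2 change ran from -0.56 to -0.70. Cnp, a myelin enzyme, had log2 changes of -0.02 at T1 and -0.25 at T8 that were not called (adjusted p = 0.974 and 0.624). At T1, Ermn (-1.63), Omg (-1.52), Gpr37 (-1.49) and Jam3 (-1.04) had the largest changes of that list. Of 10 lipid and metabolic enzymes, 6 to 8 were lower and 0 higher, led at T1 by Fa2h, which hydroxylates myelin fatty acids (-1.90), Ugt8, which makes galactosylceramide (-1.75), Car2 (-1.44) and Qdpr (-1.15).

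Of 6 measured transcription factors of the lineage, 3 or 4 were lower and 0 higher at each time, with St18 (-1.07), Olig1 (-0.91), Nkx6-2 (-0.79) and Sox10 (-0.36) called at T1. Among 6 genes of precursors and newly formed oligodendrocytes, 1 was lower and 1 to 4 higher. Enpp6, of newly formed cells, was the one lower, by -0.90 at T1, while the precursor receptor Pdgfra (0.72) and the proteoglycan Cspg4 (0.44) were higher at T1. In T2_NPC against T2, 3 of the 15 structural genes were higher, Bcas1 (0.67), Pllp (0.54) and Jam3 (0.54), beside 4.62% of all gene names. Cnp had a change of 0.91 there that was not called (adjusted p = 0.104). In T1_NPC against T1, Jam3 (0.68) and Bcas1 (0.45) were higher, beside 5.45% of all gene names. None of the enzymes or transcription factors was called in either comparison.

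Genes of other cell types changed in the same comparisons, some lists up and others down, and their part in the members' changes was not tested. Of 8 genes of Schwann cells and peripheral myelin, 6 or 7 were higher and 1 or 2 lower at each time. Among the higher ones was Egr2, a transcription factor of myelinating Schwann cells, with log2 changes of 3.68 at T1 and 4.59 at T8. The list's summed level rose from 13.73 to 13.92 in T0 to 15.74 to 16.21 in T8. All 9 microglia and macrophage genes were higher at T1 and T2 and 8 at T4 and T8, with summed levels of 15.48 to 16.09 in T0 and 18.84 to 19.06 in T1. Of 10 neuron genes, 9 or 10 were lower at each time, with summed levels of 18.27 to 18.72 in T0 and 16.41 to 17.34 in T1. Fibroblast genes were higher for 5 or 6 of 6, and T cell genes for 5 of 5. Astrocyte genes were lower for 4 of 7 at T1 and 1 of 7 at T8, with Gfap higher at all times (0.86 at T1). Endothelial genes were higher for 1 to 3 of 5, and progenitor and ependymal genes for 2 to 4 of 5, with 1 lower at T1. Over all gene names, 19.1%, 17.7%, 17.5% and 18.2% were called higher in time order. The endothelial count of 1 of 5 at T2 and T4 is near these shares. In T2_NPC against T2, 1 of 5 endothelial genes was called higher, beside 4.62% of all gene names. The summed endothelial level was 13.75 to 14.35 in T2_NPC, above 13.46 to 13.68 in T2. Of the progenitor and ependymal genes, 1 of 5 was also called higher, with summed levels of 16.43 to 16.71 in T2_NPC and 15.96 to 16.63 in T2. None of the Schwann cell, neuron, astrocyte, microglia and macrophage, fibroblast or T cell genes was called. The part of these lists in the Mbp and Mobp values was not tested.

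Across arrays the members were only partly alike. Over the 28 arrays, Pearson's r between 2 members had a median of 0.48 over 21 pairs, from -0.14 to 0.70, and with group means removed a median of 0.30, from -0.58 to 0.61. The 10 other gene symbols with the highest correlation to the mean of the scaled members over the 28 arrays were Stmn4 (0.92), Ncald (0.91), Kcna6 (0.91), Strn (0.91), Tmeff1 (0.90), Jam3 (0.89), Ywhaq (0.88), Cdc42ep2 (0.88), St6galnac3 (0.88) and Anln (0.88). Over the 24 injured arrays the leading gene was again Stmn4 (0.90), then Gab1 (0.89), Sept4 (0.87), Tmeff1 (0.87), Slc25a17 (0.85), Jam3 (0.85), Kcna6 (0.85), Ncald (0.84), St6galnac3 (0.84) and Tmod1 (0.84), of which 6 were in both sets. These are descriptions over arrays that share groups, sessions and normalization.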

How the data were processed

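Total RNA of 28 spinal cord samples was labelled with Cy3 and hybridized to 1-colour Agilent whole rat genome arrays. The authors deposited scanner output, whose intensity values had background subtracted and spatial trends removed by Agilent Feature Extraction 10.7.1.1, and a table of log2 values that the authors had quantile normalized between arrays (columns share a median of 7.25). Gene names came from the scanner files and are those of the array design. Control spots were left out, and the mean over spots and then over probes gave 1 value for each gene name. Each of 13 comparisons was tested with limma 3.58.1 (R 4.3.3, lmFit and eBayes) on all 28 arrays, with 7 group means, and p-values were adjusted by Benjamini-Hochberg over 35469 gene names, or 41012 single probes where stated, and called at 0.05. The code was tested on simulated data. Precision is limited by the number of arrays. The methods give 4 animals per group. Every member and comparison is named. Of each list, up to 4 called genes with the largest change and Cnp are named, and some listed genes are not reported here. Of 101 listed genes, 92 were on the array, 2 under an older name. The members, lists and tests were chosen with earlier results of these data known. Alternatives were other array names, scalings and background corrections, single or brightest probes, a filter on dim probes, other eBayes settings, blocks for slide, session or replicate number, and leaving out each array. Scanner outliers (0.307% of spots) were left out where intensities were used, and normexp used the median rather than the planned mean signal, which 20 files lack.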

Additional observations from a re-analysis of the deposited data

Results flagged for a closer look

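Of 49 groups of 4 values (7 genes in 7 groups), 1 held a value far from the others by Dixon's criterion, where chance alone gives about 1 in 20. Mog in T1_NPC replicate 4 read 13.62 on the log2 scale, above 13.19 to 13.26 on the other arrays of that group. The cause was not tested. No member differed between the effects of the 2 transplantations after adjustment.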

How the results depend on the processing

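Under the sample names of the scanner files, the members called were 0 in each of the 13 comparisons and the pairs called were 0, and 22 of 91 member changes turned sign, of which 2 had been called, Mag at T2 (0.0465) and Cldn11 in T1_NPC minus T0 (-0.21). With only the compared groups in the fit, T2 minus T0 had 3 members called and T1_NPC minus T0 had 2. T4 minus T0 had 5 with 75th percentile scaling, 5 with only the undisputed arrays and 6 with session as a fixed block. By the brightest probe, in single-probe fits or in place of the mean, T2 minus T1, T8 minus T1 and T1_NPC minus T1 had 1 each, and Mobp turned to 0.23 in T1_NPC minus T0 and 0.62 in T2_NPC minus T0. T2_NPC minus T2 had 1 with 75th percentile scaling and 1 with slide as a random block, and T2_NPC minus T0 had 2 with that block. Leaving out 1 array gave 5 called for T1, 3 to 5 for T2, 2 to 4 for T4 and 5 to 6 for T8 against T0, 0 to 1 for T2 minus T1, 0 for T4 minus T2, T8 minus T4, T8 minus T1 and the difference of the transplantation effects, 0 to 3 for T1_NPC minus T1, 1 to 2 for T2_NPC minus T2, 4 to 5 for T1_NPC and 2 to 4 for T2_NPC against T0, and 4 to 11 pairs. The 3 for T2 came on leaving out replicate 1, 2 or 4 of T0 or any of replicates 2 to 4 of T2, the 1 for T2 minus T1 without replicate 4 of T2, the 1 for T2_NPC minus T2 without replicate 1, 3 or 4 of T2 or any of replicates 1 to 3 of T2_NPC, and the 2 for T2_NPC minus T0 without replicate 1 or 3 of T0 or 1 or 2 of T2_NPC. The causes were not tested.

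Replicate numbers did not pair the samples (correlations of deviations with the same number from -0.34 to 0.30), and with the replicate number as a block the members called were 5, 5, 3 and 6 against T0 in time order, 0 in the comparisons between times, 0 for T1_NPC minus T1 and the difference of effects, 2 for T2_NPC minus T2, 5 for T1_NPC and 3 for T2_NPC against T0. The 75th percentile scaling moved the median of all gene names at T1 against T0 from -0.10 to -0.27, beside members' medians of -1.18 and -1.40. Matched scanner intensities, normexp, the filter on dim probes and the trended, robust eBayes kept each count within 1.5 times.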
